A study of Mus musculus with 6 samples.

Results

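The 10 genes described here are immediate early genes, taken by symbol: Fos, Fosb, Jun, Junb, Egr1, Egr3, Atf3, Ier2, Nr4a1 and Dusp1. All 10 were found among the 25419 genes of the table, and all 10 were among the 19465 genes that entered the test. Cochlear RNA was sequenced from 3 samples of young and 3 samples of old C57BL/6 mice, aged 1 and 12 months by the sample labels. Tissue of 3 mice was mixed for each sample, so the spread between samples is a spread between pools and not between single mice. Both groups were housed free of specific pathogens. The paper states that tissue was taken after hearing tests by auditory brainstem response, in which old mice had higher thresholds. The part of these hearing tests in the values was not tested. The cochleas were removed after deep anaesthesia and decapitation. According to the labels, the basilar membrane was then dissected and snap frozen. The measurement is FPKM, fragments normalized to transcript length and library size, summed over the transcripts of a gene. From the steps between low values, each library was estimated to hold 12380000 to 15670000 fragments.

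Immediate early genes are transcribed within minutes of a stimulus from transcription factors that are already present in the cell, with no need for new protein. Growth factors, calcium entry, neuronal firing, injury, stress hormones and the handling of tissue can all switch them on, and their messenger RNAs are short-lived. Most of their products are transcription factors, among them the FOS and JUN proteins that pair to form AP-1, and others, such as the phosphatase DUSP1, damp the signal that induced them. Many of their promoters hold the cAMP response element (CRE), which is bound by CREB.

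In old mice, Fos, Junb, Atf3 and Dusp1 were higher at an adjusted p below 0.05 (limma, all 19465 genes), and 0 of the 10 were lower. The share of all genes called higher was 5.65% (1099 genes) and the share called lower was 3.81% (741 genes). In 7 of the 10, each old sample exceeded each young sample, against 17.6% of all genes tested, and the reverse held for 0 of the 10, against 16.1%. Fosb is 1 of these 7. Its young mean, 0.0783 FPKM, was below the 0.1 FPKM required of the mean over all samples. Fosb thus entered the test only through its old values. The 10 genes were chosen with earlier results of these data known, so these shares are a description. The log2 change was above 0 for 9 of the 10, with a median of 1.32, while the median over all genes tested was 0.01. The samples of 1 age differed widely in these genes: young replicate 1 held the highest young value of 8 genes and old replicate 1 the highest old value of 9. The count of 4 was 0 without young replicate 2 or without any 1 of the old replicates, 1 (Atf3) without young replicate 3, and 3 (Fos, Junb and Atf3) without young replicate 1. Young replicate 1 also stood apart by its neutrophil markers, which summed to 428 FPKM there and to 11.4 and 28.1 FPKM in the other young samples.

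Before the values, the promoters are shown of the 4 called genes and of Nr4a1, which held the most copies of the core of the CRE and was chosen after the matches were seen, because the motifs of signal-dependent transcription lie here. These are the 250 bases before the start of transcription in RefSeq (GRCm38.p6), written 5′ to 3′ on the strand of the gene. Capitals mark the CRE (TGACGTCA), its core (TGACG) and the TATA box (TATAA), searched on both strands, so that a core can also read CGTCA.
Fos (chr12:85473640-85473889, plus strand): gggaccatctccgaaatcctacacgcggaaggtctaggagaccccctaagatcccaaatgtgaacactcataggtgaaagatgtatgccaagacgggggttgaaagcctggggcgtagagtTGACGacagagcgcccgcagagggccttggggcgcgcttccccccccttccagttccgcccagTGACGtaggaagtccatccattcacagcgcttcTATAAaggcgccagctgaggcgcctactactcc
Junb (chr8:84978749-84978998, minus strand): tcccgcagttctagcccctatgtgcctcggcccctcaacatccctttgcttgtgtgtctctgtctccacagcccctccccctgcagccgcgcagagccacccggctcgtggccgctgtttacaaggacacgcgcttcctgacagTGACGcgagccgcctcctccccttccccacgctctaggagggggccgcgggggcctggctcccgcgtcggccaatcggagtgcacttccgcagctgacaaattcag
Atf3 (chr1:191183334-191183583, minus strand): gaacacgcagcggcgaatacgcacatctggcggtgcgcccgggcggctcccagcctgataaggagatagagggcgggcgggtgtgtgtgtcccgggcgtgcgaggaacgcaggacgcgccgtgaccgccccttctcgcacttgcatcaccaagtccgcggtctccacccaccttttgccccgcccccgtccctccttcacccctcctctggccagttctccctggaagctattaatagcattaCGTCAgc
Dusp1 (chr17:26508473-26508722, minus strand): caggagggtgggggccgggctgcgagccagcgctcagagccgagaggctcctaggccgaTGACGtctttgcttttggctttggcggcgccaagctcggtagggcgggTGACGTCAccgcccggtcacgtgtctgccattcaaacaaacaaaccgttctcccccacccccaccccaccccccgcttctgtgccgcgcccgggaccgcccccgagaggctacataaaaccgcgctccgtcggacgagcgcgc
Nr4a1 (chr15:101266596-101266845, plus strand): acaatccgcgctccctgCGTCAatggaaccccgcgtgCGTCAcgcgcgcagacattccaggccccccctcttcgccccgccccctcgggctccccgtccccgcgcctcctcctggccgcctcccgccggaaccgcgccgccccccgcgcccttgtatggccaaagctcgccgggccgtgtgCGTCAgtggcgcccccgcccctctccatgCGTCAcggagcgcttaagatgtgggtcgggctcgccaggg
In Dusp1 the full CRE begins 143 bases before the start and contains an overlapping pair of cores, and a further core begins at 191 bases. In Fos the cores begin at 129 and 66 bases and the TATA box at 33 bases before the start. The core lies at 106 bases in Junb and at 7 bases in Atf3, and Nr4a1 holds 4 of them. The main listed transcript of Atf3 begins at chr1:191183340 and that of Dusp1 at chr17:26508519, within the bases shown. The Atf3 core thus lies inside this transcript and not before it. Of the 10 genes, 7 were found in the promoter table, without Egr1, Egr3 and Ier2. A core was present in 6 of these 7 (Jun was the exception) and in 17.8% of all 32851 promoters, the full CRE in 1 of 7 and in 1.55%. The EGR site GCGNGGGCG was found in Fosb and Nr4a1 and in 4.7% of all promoters, and the TATA letters in 22.8%. The AP-1 site TGANTCA and the CArG box, which is bound by serum response factor, were found in 0 of the 7 and in 6.75% and 1.47% of all promoters. Only exact matches within these 250 bases were counted. Sites further from the start, or with other letters, were not searched, so these genes may still hold such sites. A match of letters is a description and does not show that a factor was bound.

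Fos (chr12:85473890-85477273, plus strand) encodes the FOS subunit of AP-1 and is among the most widely used markers of recent cell activation. Its levels were 5.87, 1.51 and 1.19 FPKM in young replicates 1, 2 and 3 and 11.2, 10.4 and 11.6 FPKM in the old replicates. The 3 old samples were close to each other, while young replicate 1 stood 4.94-fold above the lowest young sample and still below all old samples. The mean was 2.86 ± 2.62 FPKM in young and 11.1 ± 0.64 FPKM in old mice (SD, n = 3). On the scale of log2(FPKM + 0.1), the change was 2.27 (SE 0.52, 95% interval 1.05 to 3.49, limma adjusted p = 0.0403), the largest of the 10. The change was 2.95 without young replicate 1 (limma adjusted p = 0.00786), 2.01 without young replicate 2 (limma adjusted p = 0.158) and 1.85 without young replicate 3 (limma adjusted p = 0.0993). Without 1 of the old replicates it was 2.24 to 2.32 and was not called either, nor was it without a filter on low values or without a variance trend. In bulk tissue such as this, fewer or more cells of a type and a change of RNA per cell cannot be told apart.

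Junb (chr8:84974484-84978718, minus strand) encodes an AP-1 subunit that pairs with FOS proteins and can restrain JUN. The young replicates were at 23.4, 10.8 and 11.6 FPKM and the old replicates at 40.1, 39.0 and 28.3 FPKM. The groups did not overlap, with young replicate 1 again the highest young sample and old replicate 3 the lowest old sample. Junb rose by a log2 change of 1.30 (limma adjusted p = 0.0388, SE 0.29). Jun (chr4:95049034-95052222, minus strand), the classical partner of FOS, stood at 14.8, 13.7 and 9.99 FPKM in young and 29.7, 28.5 and 16.5 FPKM in old mice. Old replicate 3 lay just above the highest young sample, so that the groups did not overlap. The log2 change of Jun was 0.92 (SE 0.25) and did not pass the threshold (limma adjusted p = 0.0579).

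Fosb (chr7:19302696-19310051, minus strand) encodes a FOS family member whose short splice form persists after repeated stimulation in neurons. It was listed at 0.0697, 0.0668 and 0.0983 FPKM in young and at 0.599, 0.335 and 0.297 FPKM in old mice. The groups did not overlap, and the ratio of the mean FPKM, 5.24, was the largest of the 10. For Fosb the log2 change came to 1.48 (SE 0.46, above 0 but not called, limma adjusted p = 0.0889). These values rest on few reads, an estimated 3.00 to 3.97 fragments per young sample and 12.0 to 16.0 per old sample. The change was 2.20 with a pseudocount of 0.01 and 0.38 with a pseudocount of 1. With a young mean of 0.0783 FPKM, below the filter of 0.1 FPKM, Fosb entered the test only through its old values.

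Atf3 (chr1:191170296-191218039, minus strand) encodes a CREB family repressor that is induced by cell stress and nerve injury. Young replicates were at 5.50, 3.87 and 2.50 FPKM and old replicates at 18.7, 14.1 and 11.8 FPKM. The lowest old sample was above the highest young sample by a wide margin. The log2 change was 1.93 (SE 0.29) with the smallest adjusted p of the 10 (limma adjusted p = 0.0167). It was the gene called in the most settings that left out a sample, without young replicate 1 (limma adjusted p = 0.0361) and without young replicate 3 (limma adjusted p = 0.0265).

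Egr1 (chr18:34859823-34864984, plus strand) encodes a zinc finger transcription factor that serum, growth factors and synaptic activity induce. It was at 2.90, 0.735 and 1.08 FPKM in young and at 5.35, 4.30 and 1.94 FPKM in old mice. The groups overlapped, since old replicate 3 fell below young replicate 1. Egr1 had a log2 change of 1.35 (limma adjusted p = 0.157, SE 0.54). Egr3 (chr14:70077203-70082614, plus strand) is a related factor that calcium and growth factor signals induce. It was low in all samples, at 0.401, 0.128 and 0.356 FPKM in young and at 0.283, 0.169 and 0.131 FPKM in old mice. It was the 1 gene of the 10 with a log2 change below 0, at -0.38 (SE 0.51, 95% interval -1.56 to 0.81, limma adjusted p = 0.668), and the groups overlapped. An estimated 2.16 to 6.49 fragments per sample lay behind it, and with an interval this wide no difference was detectable at this depth.

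Nr4a1 (chr15:101254269-101274795, plus strand) encodes the orphan nuclear receptor NUR77, which growth factors, calcium and inflammatory signals induce. The young replicates were at 6.78, 3.04 and 3.00 FPKM and the old replicates at 17.8, 14.1 and 6.10 FPKM. Old replicate 3 was below young replicate 1, so that the groups overlapped, and within old mice the highest value was 2.92-fold above the lowest. Nr4a1 had a log2 change of 1.52 (limma adjusted p = 0.0780, SE 0.45). Ier2 (chr8:84661331-84662852, minus strand), a small nuclear protein gene of the serum response, was at 9.70, 6.79 and 10.6 FPKM in young and 11.9, 10.7 and 11.8 FPKM in old mice. The groups touched without overlap, old replicate 2 lying just above young replicate 3. The log2 change of Ier2 was 0.37 (SE 0.17, 95% interval -0.03 to 0.76, limma adjusted p = 0.213).

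Dusp1 (chr17:26505590-26562128, minus strand) encodes a phosphatase that inactivates the MAP kinases p38, JNK and ERK, and glucocorticoids also induce it. It was the most abundant of the 10, at 40.3, 24.9 and 34.3 FPKM in young and 64.9, 59.8 and 49.1 FPKM in old mice. The groups did not overlap. Dusp1 rose by a log2 change of 0.82 (limma adjusted p = 0.0370, SE 0.18), the smallest of the 4 called. At an unadjusted p below 0.05, 8 of the 10 were higher (limma, Ier2 and Egr3 the exceptions), against 14.6% of all genes tested that were higher and 13.1% that were lower at that threshold. These 8 include Fosb, which entered the test only through its old values. The exact two-sided permutation test gave p = 0.1 for 7 of the 10, which is the smallest p it can give for 3 samples against 3.

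**Figure D1:**
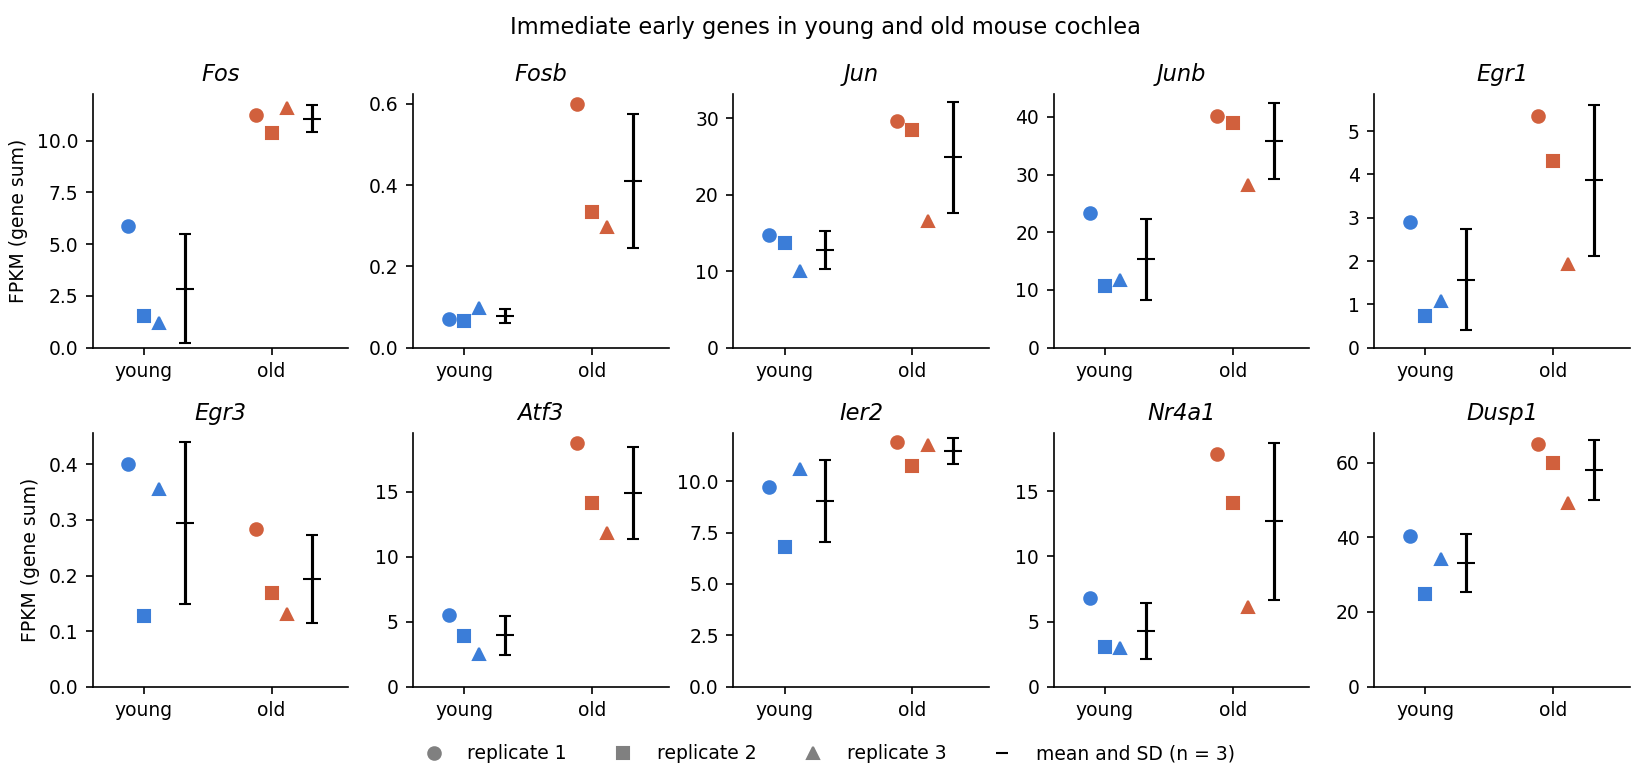
FPKM of the 10 immediate early genes in each of the 6 samples, with 1 panel per gene. The vertical axes start at 0 and differ between panels, the symbols mark the replicate number, and the bar gives the mean and SD of 3 samples. The groups are apart, with old mice higher, in 7 panels, the groups overlap for Egr1, Nr4a1 and Egr3, and young replicate 1 is the highest young sample in 8 panels.

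The order of the genes by level, in FPKM and so per length of transcript, was similar in both groups at its ends. Dusp1 was the highest, at a mean of 33.1 FPKM in young and 57.9 FPKM in old mice, followed by Junb and Jun, whose ranges overlapped each other in both groups. Fosb and Egr3 were the 2 lowest in both groups. They were also the 2 genes with a mean over the 6 samples below 1 FPKM. Between these ends, Ier2, Nr4a1, Atf3 and Fos stood in this order in young mice, and the ranges of neighbours in this order overlapped except for those of Ier2 and Nr4a1. In old mice, Atf3, with a mean of 14.9 FPKM, came before Nr4a1, Ier2 and Fos, and each of these ranges overlapped that of the gene above it. Fos and Ier2 did not overlap in young mice, where Fos was at most 5.87 FPKM and Ier2 at least 6.79 FPKM, and did overlap in old mice.

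Of the 34 transcripts annotated for the 10 genes, 17 are listed in the table, and 7 of the genes are listed with 1 transcript. For Atf3, ENSMUST00000027941 carried nearly the whole sum, and ENSMUST00000195117 was at 1.53 FPKM in old replicate 3 and near 0 in the other samples. For Egr1, ENSMUST00000165033 carried 71.1% of the young mean and 77.4% of the old mean. Fosb was split over 6 listed transcripts, of which ENSMUST00000003640 and ENSMUST00000208446 had the value in old replicates 1 and 2, and ENSMUST00000208505 in old replicate 3. With so few fragments, the split of Fosb between its transcripts was not resolved. Junos overlaps the annotated span of Jun, Prdx2 that of Junb, and Ergic1 and Gm8225 that of Dusp1, in each case on the opposite strand. The libraries were made with a kit that keeps the strand. AC122252.1 and AC122252.4 overlap the annotated span of Dusp1 on the same strand and are not listed in the table. That span, chr17:26505590-26562128, is longer than the listed Dusp1 transcript, chr17:26505590-26508519. Overlap with the listed transcripts was not examined, and whether reads of these genes entered the Dusp1 value was not tested.

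The 10 genes varied between samples of the same age more than most genes did. The SD of log2(FPKM + 0.1) around the group means, here called the spread, had a median of 0.47 over the 10, from 0.24 for Ier2 to 0.86 for Egr1. The median was 0.21 over all genes tested and 0.17 over the 14985 genes with a mean of at least 1 FPKM. All 10 were above this last value. Fosb and Egr3, with a mean below 1 FPKM and few fragments, lie outside that set, so the value is not matched to their level. Egr1, Fos and Nr4a1 stood at the 96.5, 96.5 and 95.5 percentile of the 14985 genes, and Ier2 at the 69.4 percentile. Fos differed within young mice, by 4.94-fold from the lowest to the highest sample, more than within old mice, where it was 1.12-fold. Nr4a1 differed by 2.26-fold within young and by 2.92-fold within old mice.

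**Figure D2:**
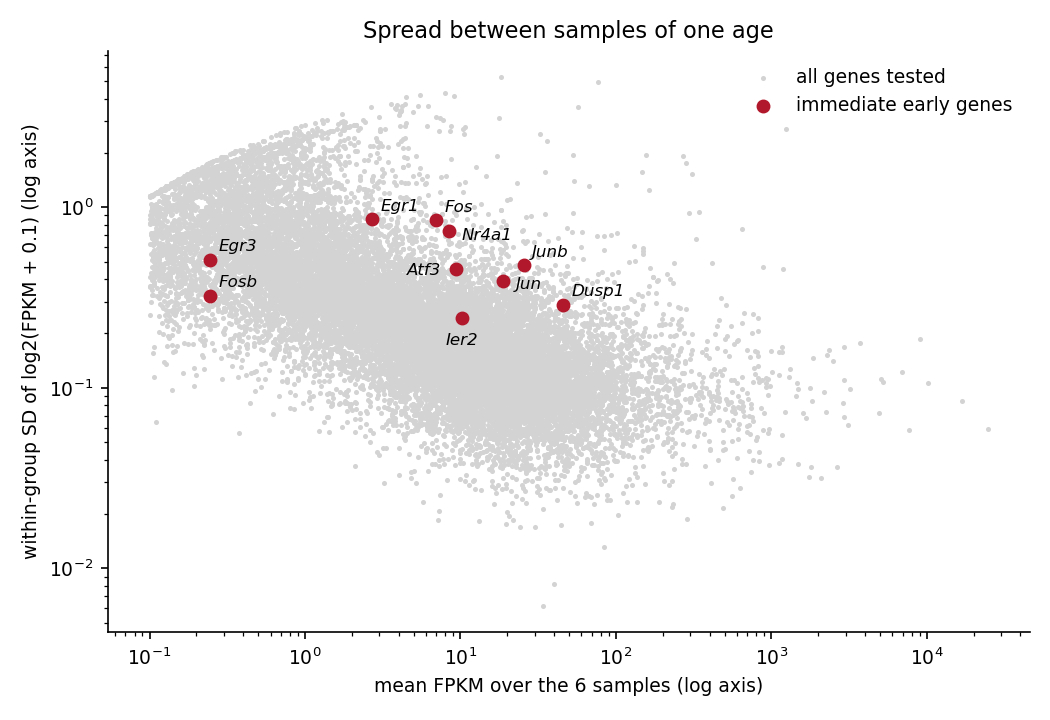
Within-group SD of log2(FPKM + 0.1) on a log axis against the mean FPKM over the 6 samples, also on a log axis, with 1 grey point per gene tested and the 10 immediate early genes in red. The red points sit between 0.24 and 0.86, above the middle of the grey points at a similar level for Egr1, Fos and Nr4a1, while the lowly expressed Fosb and Egr3 sit among genes of large spread.

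The 10 genes shared their highest sample within an age more than their lowest. After each gene was standardized over the 6 samples, to SD units around its own mean, the mean over the 10 was -0.03, -1.17 and -0.73 in young replicates 1, 2 and 3. It was 1.05, 0.68 and 0.20 in the old replicates. Old replicate 1 was thus the highest sample and young replicate 2 the lowest, and young replicate 1 and old replicate 3 were the closest samples of different age. Young replicate 1 was the highest young sample for 8 of the 10, where this held for 29.3% of all genes with a mean of at least 1 FPKM. The lowest young sample was replicate 2 for 6 of the 10 (33.6% of those genes) and replicate 3 for 4 (33%), namely Fos, Jun, Atf3 and Nr4a1. Old replicate 1 was the highest old sample for 9 of the 10 (36.8% of those genes) and old replicate 3 the lowest old sample for 8 of the 10 (34.1%). Fos and Ier2 were the 2 genes for which old replicate 3 was not the lowest. The order of the 6 samples by this mean was the same when any 1 of the 10 genes was left out. The 10 genes share the 6 libraries, so these counts describe the samples and carry no test.

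**Figure D3:**
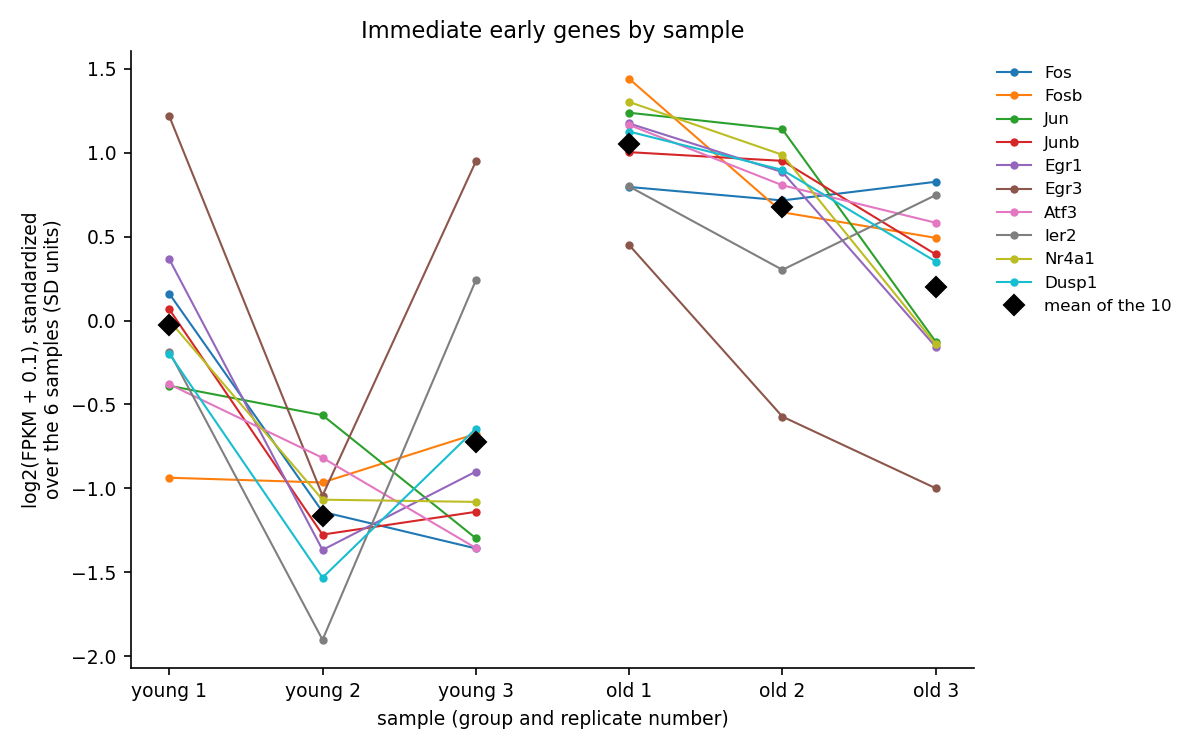
Level of each of the 10 immediate early genes in the 6 samples as log2(FPKM + 0.1) in SD units around the mean of the gene, with the black diamonds at the mean of the 10. Lines join the values of 1 gene and stand for no order of the replicates. The diamonds are at -0.03, -1.17 and -0.73 in young and at 1.05, 0.68 and 0.20 in old samples, and Egr3 is higher in young replicates 1 and 3 than in any old sample.

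Markers of cell types that the dissected tissue can hold also differed between the samples. Macrophage markers summed to 143 to 232 FPKM in young and 769 to 841 FPKM in old mice, with 10 of the 12 called higher by limma, against 5.65% of all genes. Hair cell markers summed to 124 to 215 FPKM in young and 75.9 to 97.4 FPKM in old mice, and neuron markers to 513 to 1011 and 342 to 371 FPKM. Of these, 3 of the 10 hair cell markers and 5 of the 8 neuron markers were called lower (against 3.81% of all genes). Schwann cell markers summed to 788 to 1220 FPKM in young and 671 to 701 FPKM in old mice, with 3 of the 7 called lower (against 3.81% of all genes). Osteoblast markers were at 334, 83.0 and 176 FPKM in young and 63.7, 77.7 and 84.0 FPKM in old mice, with 2 of the 8 called lower (against 3.81%). Each of the 7 neutrophil markers was highest, within young mice, in young replicate 1. In old mice their sum was 75.1, 42.7 and 13.6 FPKM, in the same order as the immediate early genes. This order was not particular to them. The macrophage sums, at 841, 814 and 769 FPKM in old mice, and those of supporting cell and muscle markers had it too. In young mice the macrophage sums, at 232, 143 and 165 FPKM, also had the order of the immediate early genes. Of the 7 neutrophil markers, 0 were called in either direction (limma, also 0 at an unadjusted p below 0.05). Erythrocyte markers were at 2954, 1434 and 2744 FPKM in young and 1369, 1408 and 2254 FPKM in old mice. Each marker of the 10 lists, those of hair cells, neurons and supporting cells included, reached 0.1 FPKM in at least 1 sample, and muscle markers were the lowest, at 0.41 to 2.58 FPKM in young and 3.13 to 16.6 FPKM in old mice. Supporting cell markers summed to 1033 to 1152 FPKM in young and 1166 to 1287 FPKM in old mice. The part of these cells in the levels of the 10 genes was not tested.

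A wider list held 46 other early response genes, of which 45 were tested (Egr4 was too low). In old mice, 21 of these 45 were called higher and 0 lower (limma), or 46.7% against the 5.65% of all genes called higher. This list and those below were also chosen with earlier results of these data known, so their shares are a description. The log2 change was above 0 for 41 of the 45, with a median of 0.60. The largest rise was that of Gadd45g, a growth arrest and DNA damage gene, at 16.2, 7.66 and 7.50 FPKM in young and 40.6, 39.9 and 31.6 FPKM in old mice, a log2 difference of 1.92 (SE 0.29) with limma adjusted p = 0.0166. Fosl2, a further partner of JUN proteins, was at 4.76, 2.55 and 2.39 FPKM in young and 13.5, 10.6 and 8.03 FPKM in old mice (log2 change 1.74). Both shared with the 10 genes the high value of young replicate 1 and the low value of old replicate 3.

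Cebpd, a C/EBP factor of the acute phase response, was at 5.85, 3.21 and 3.38 FPKM in young and 14.0, 15.3 and 11.1 FPKM in old mice (log2 change 1.71). Csrnp1, a nuclear protein gene that AXIN1 induces, was at 6.81, 5.39 and 6.39 FPKM in young and 19.1, 21.5 and 13.4 FPKM in old mice (log2 change 1.50). In these 2 genes old replicate 2 was the highest old sample. Over the 45 genes, young replicate 1 was the highest young sample for 28 (62.2%), old replicate 1 the highest old sample for 28 (62.2%) and old replicate 3 the lowest old sample for 25 (55.6%). The count of 21 dropped to 12 when either young replicate 1 or 3 was left out, and was 1 without young replicate 2 or old replicate 3, and 0 without old replicate 1 or old replicate 2.

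**Figure D4:**
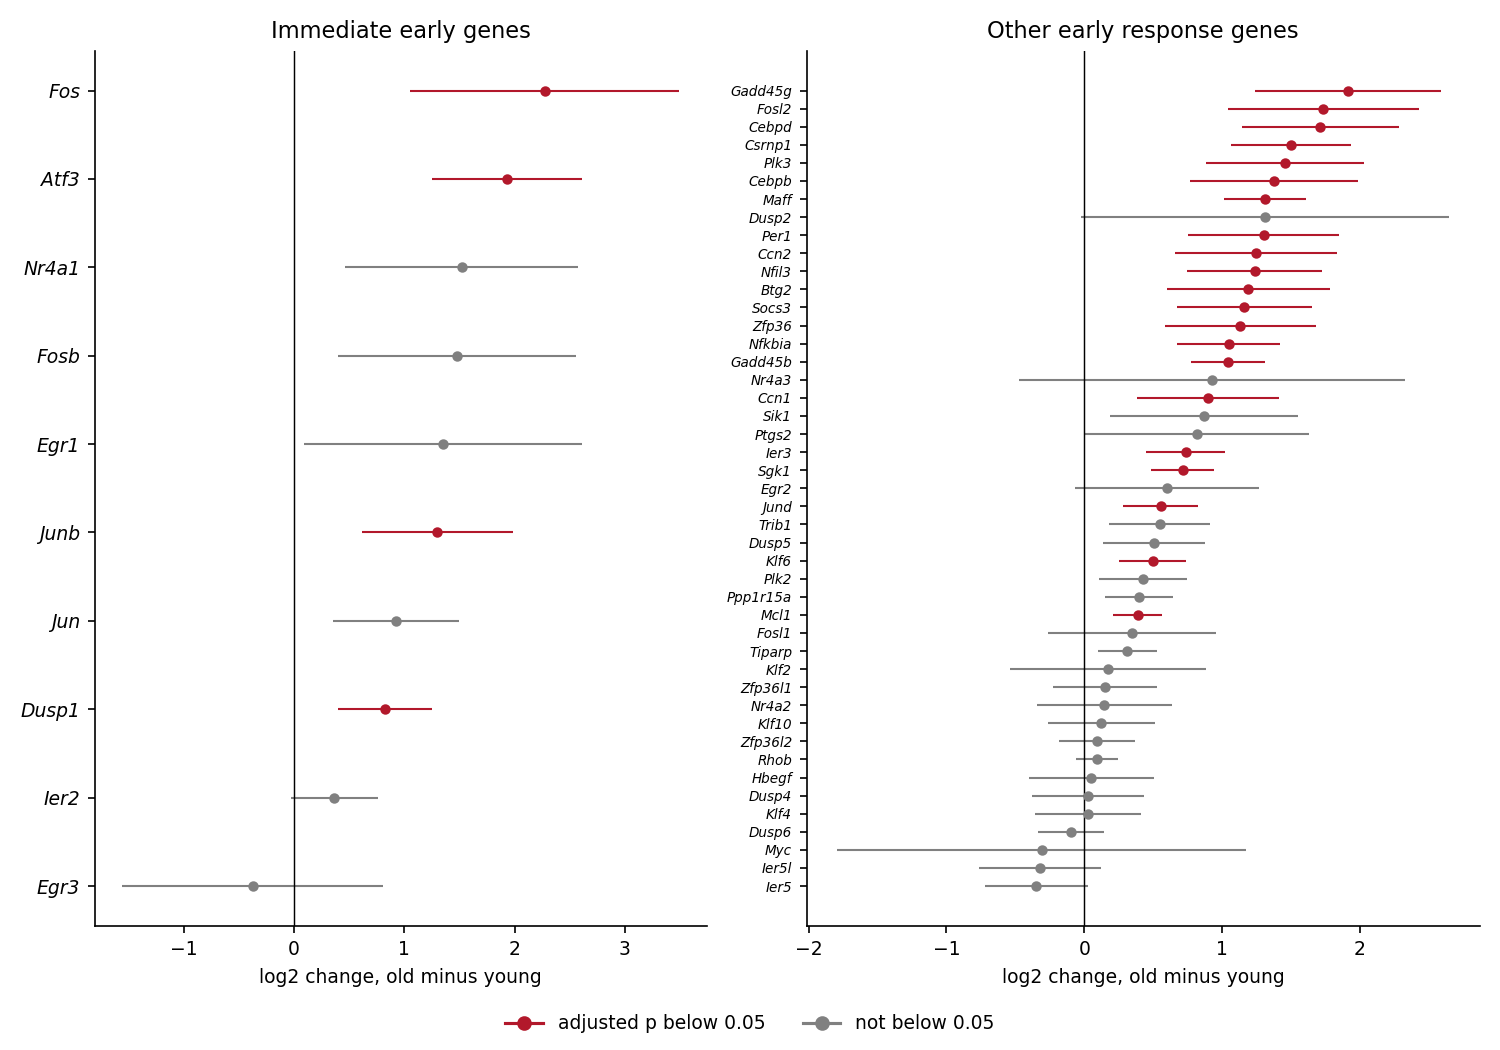
Log2 change, old minus young, on the scale of log2(FPKM + 0.1), for the 10 immediate early genes on the left and the 45 other early response genes on the right, with points at the estimate and lines at the 95% interval from limma. Red marks the 4 and 21 genes with an adjusted p below 0.05. The points lie above 0 for 9 of 10 and 41 of 45 genes.

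Genes that carry the signal to these promoters were examined next. Of 28 upstream regulators, the kinases and the CREB, SRF and TCF factors, 2 rose (7.14%, against 5.65% of all genes called higher) and 1 fell (against 3.81% called lower) with age by limma, and the median log2 change was -0.16. This share is near that of all genes, and the count was 0 in 5 of the 6 fits that left out 1 sample. Crem, a CREB family gene that also gives a repressor from an internal promoter, was at 20.6, 24.5 and 20.7 FPKM in young and 31.8, 28.4 and 33.0 FPKM in old mice (log2 change 0.50, limma adjusted p = 0.0288). Rps6ka1, which encodes the kinase RSK1 below ERK, had a log2 change of 0.48 and Mapk10, which encodes the neuronal kinase JNK3, one of -1.12. Mapk10 was at 18.9, 20.8 and 11.8 FPKM in young and 8.54, 7.17 and 7.28 FPKM in old mice. The neuron markers given above also were lower, and their part in the level of Mapk10 was not tested. Each old sample was below each young sample for 10 of the 28, against 16.1% of all genes tested, and above for 4 of the 28 (14.3%, against 17.6%).

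Of 12 partners of the FOS, JUN, EGR and NR4A proteins, 2 were higher (16.7%, against 5.65% of all genes) and 0 were lower (against 3.81%) by limma. The count was 0 without young replicate 2 or without any 1 of the old replicates. Mafk, a small MAF protein gene, was at 13.7, 13.4 and 14.7 FPKM in young and 30.0, 24.9 and 26.1 FPKM in old mice (log2 change 0.95, limma adjusted p = 0.00847). Ddit3, which encodes the stress factor CHOP, had a log2 change of 0.63. The median log2 change of the 12 was -0.16.

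Genes that neuronal firing induces were also examined. Of 7 activity-regulated genes, 5 were tested (Npas4 and Vgf were too low) and 0 were called in either direction by limma. Of all genes, 5.65% were called higher and 3.81% lower. At an unadjusted p below 0.05 the count was 1, Homer1, which was lower. At that threshold 14.6% of all genes were higher and 13.1% lower. With 5 genes, these counts cannot be told from the shares of all genes. Homer1, a scaffold of glutamate receptors, was at 15.6, 17.8 and 16.5 FPKM in young and 15.2, 11.2 and 14.4 FPKM in old mice (log2 change -0.30, limma adjusted p = 0.180). Nptx2, a secreted synaptic pentraxin gene, had a log2 change of -0.57 (limma adjusted p = 0.387). Of 10 heat shock genes, 0 were higher (against 5.65% of all genes) and 2 were lower (against 3.81%) by limma, Hsp90aa1 (log2 change -0.50) and Hsph1 (log2 change -0.46). That count was 0 without a variance trend and 1 (without young replicate 3) or 0 when a sample was left out. Hsp90aa1 was at 347, 328 and 256 FPKM in young and 217, 219 and 217 FPKM in old mice. The median log2 change of the heat shock genes was -0.23.

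**Figure D5:**
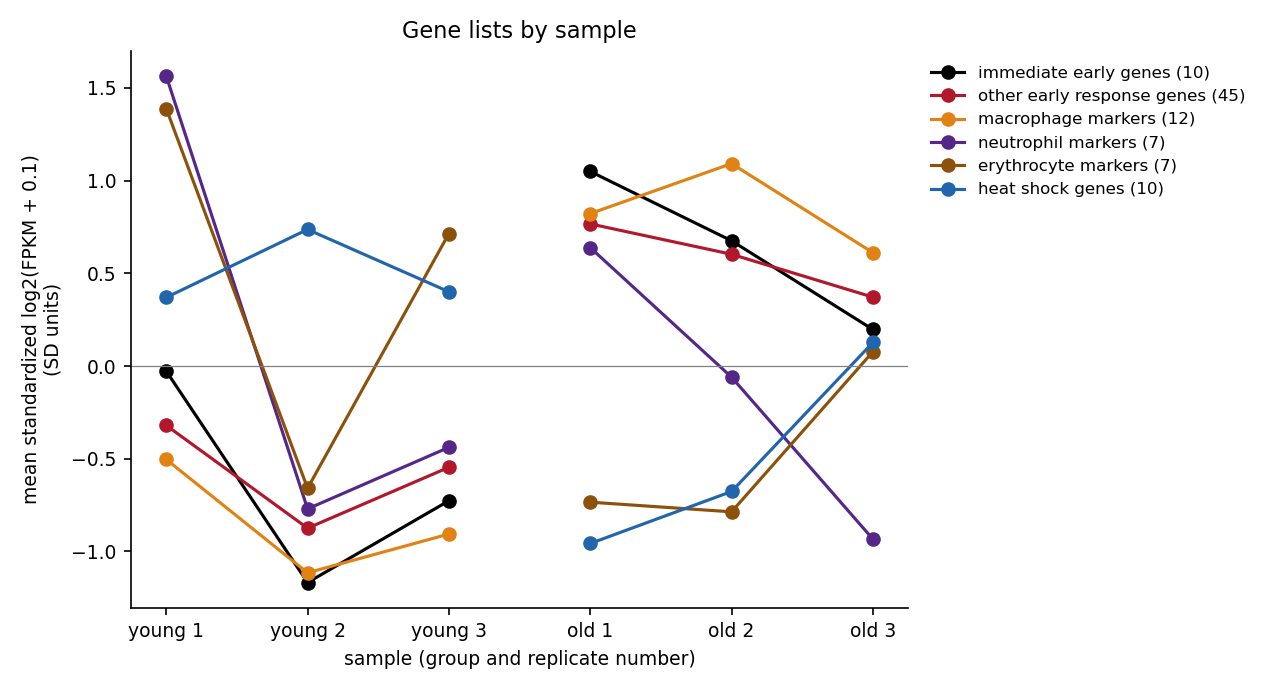
Mean level of 6 gene lists in the 6 samples, as log2(FPKM + 0.1) of each gene in SD units and averaged over the list, with the number of genes in brackets. Lines join the values of 1 list and stand for no order of the replicates. The other early response genes follow the order of the 10 immediate early genes in all 6 samples, the neutrophil markers are highest in young replicate 1, the macrophage markers are higher in all old samples, and the heat shock genes are lower in old replicates 1 and 2 than in the other samples.

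Outside these lists, the gene whose log2 level followed the mean of the 10 most closely over the 6 samples, among 14791 genes ranked, was Col11a2, a cartilage and tectorial membrane collagen gene. It had a Pearson r of 0.997 and levels of 273, 222 and 236 FPKM in young and 331, 317 and 282 FPKM in old mice. Slc2a13, 1810062G17Rik, Rasd1 and Tceal9 came next, with r from 0.992 to 0.996. Rasd1, a small G protein gene that dexamethasone induces, was at 3.59, 1.53 and 2.18 FPKM in young and 8.92, 5.66 and 4.93 FPKM in old mice. After the mean of each group was subtracted, Rps29, Leprot, LNC_000648, Wdr35 and Krcc1 came first, with r from 0.993 to 0.997. These r values describe 6 libraries that the genes share and were picked as the highest of the 14791, and they carry no test.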

How the data were processed

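Cochlear RNA of 6 pooled samples of C57BL/6 mice was analysed, with the age group of each taken from its label. The authors made directional libraries, aligned the reads to GRCm38, assembled transcripts and computed an FPKM value per transcript and sample, and the deposited table holds these FPKM values. The submitters' processing notes name CASAVA 1.8, TopHat2 2.0.9, Cufflinks 2.1.1 and Cuffdiff 2.1.1. The annotation release and the scaling between libraries are not given in the sources used here. FPKM depends on transcript length and on the makeup of each library.

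Of 56671 transcripts, 55679 carry Ensembl identifiers, of which 55275 matched GENCODE M21 and were summed per gene. The 404 that did not match were left out, and the 992 transcripts with the prefix LNC_ were each kept as a gene. The 10 genes and the gene lists were chosen with earlier results of these data known. Low FPKM values fell on steps worth 1 fragment (92.4 to 93.8% lay within 0.1 of a whole fragment), from which fragment numbers were estimated. They carry counting error and also the error of the fitted library size and of the fitted correction for transcript length.

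The ages were compared with limma 3.58.1 in R 4.3.3 (lmFit, eBayes with trend, median prior df 3.42) on log2(FPKM + 0.1), which understates changes of low genes. Genes with a mean of at least 0.1 FPKM were tested, two-sided, with Benjamini-Hochberg adjustment over all 19465 and a threshold of 0.05. Cuffdiff, the test of the study, needs reads, which were not used here. The code was tested on simulated data. All 10 genes are named, and of each list the called genes, at most 4 in each direction by size of change, or the 2 with the smallest p where 0 were called. The 5 genes outside the lists with the highest r are named, likewise after subtracting group means. Tables, motif searches and plots were made in Python 3.11.15.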

Additional observations from a re-analysis of the deposited data

How the results depend on the processing

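The log2 changes of the 10 genes kept their direction in every setting in which they were fitted (Fosb and Egr3 could not be fitted with a mean of at least 1 FPKM, nor Fosb with the most abundant transcript), and the median over the 10 was between 0.91 (pseudocount 1) and 1.55 (without young replicate 1 or old replicate 3). The number called did not keep its size. Of the 10 genes, 4 were called as reported, 1 with no filter on low values, 0 with limma without a variance trend and 8 with an unadjusted p. When each sample was left out in turn, 0 to 3 of the 10 were called, and 5 to 1445 of all genes against 1840 as reported. Each of these fits had 1 sample fewer, and the variance trend and its prior were estimated anew in each. All genes called numbered 1152 with no filter, 410 without the trend and 5403 unadjusted. Other early response genes called numbered 4 without the trend and 0 to 12 with a sample left out. Upstream regulators called numbered 5 with a mean of at least 1 FPKM, 5 with p adjusted over protein-coding genes, 6 with sample weights, 0 without the trend, 10 unadjusted, and 0 to 2 with a sample left out. Heat shock genes called numbered 1 with no filter or with the most abundant transcript, 0 without the trend, 5 unadjusted, and 0 to 1 with a sample left out. Partners called numbered 4 and activity-regulated genes 1 unadjusted, and with a sample left out 0 to 2 and 0.

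Over all genes with a mean of at least 1 FPKM, deviations from the group means correlated between same-numbered samples at r = 0.03, -0.09 and 0.04. Such values over all genes cannot tell whether same-numbered samples were paired for the 10 genes. Replicate 1 held the highest young value of 8 of the 10 and the highest old value of 9. With a replicate block 4 of the 10 genes were called (Atf3, Jun, Junb and Nr4a1), 730 of all genes, 1 upstream regulator and 0 heat shock genes. The cause of these shifts was not tested. Pools of 3 mice, 3 samples per age and few fragments for Fosb and Egr3 limit these comparisons.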

Other observations

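A further 2 lists were examined, written after the values of Per1, Sgk1 and Nfil3 had been seen and so given as a description with no weight as evidence. In old mice, 5 of 16 circadian clock genes were called higher and 0 lower (limma, adjusted over all genes tested, where 5.65% were called higher). Per1, a clock repressor that CREB and glucocorticoids also induce, was at 28.5, 22.0 and 26.1 FPKM in young and 85.6, 67.4 and 43.1 FPKM in old mice. It shared with the immediate early genes the order of the old replicates, in which replicate 1 was the highest and replicate 3 the lowest. Ciart was at 20.1, 9.08 and 9.55 FPKM in young and 36.1, 35.8 and 27.4 FPKM in old mice, and Nr1d1, which encodes the repressor REV-ERB alpha, at 13.3, 7.62 and 10.1 and at 19.9, 24.6 and 17.8 FPKM. Nfil3 and Cry2 were the other two called, with log2 changes of 1.24 and 0.49. Per1 and Nfil3 are also among the other early response genes called higher above, so they are counted again here. Arntl, the activator BMAL1, was at 4.56, 8.43 and 6.22 FPKM in young and 3.91, 4.15 and 5.21 FPKM in old mice and was not called (limma adjusted p = 0.223). Per2 and Tef had log2 changes near 0. The hour at which tissue was collected is not given in the sources used here, and its part in these values was not tested.

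In old mice, 6 of 10 glucocorticoid-induced genes were called higher (against 5.65% of all genes) and 0 lower (against 3.81%). Per1, among those called, is also in the clock list. Per1 and Sgk1 are also among the other early response genes called higher above, so this count is not separate from that one. Ddit4, an inhibitor of mTOR signalling, was at 27.2, 7.23 and 13.7 FPKM in young and 54.1, 52.4 and 36.2 FPKM in old mice. The metallothionein gene Mt2 was at 353, 144 and 166 FPKM in young and 595, 611 and 634 FPKM in old mice, and Mt1 and Sgk1 had log2 changes of 1.42 and 0.72. Fkbp5 and Tsc22d3 were not called, with log2 changes of 0.60 and 0.27. In young mice, replicate 1 was the highest sample for each of the glucocorticoid-induced genes, as it was for most of the immediate early genes.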
